A study of Mus musculus with 6 samples.

Results

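The proteins of the mitochondrial ribosome are the subject here, followed through the subcutaneous white fat of mice. The members are the genes whose symbol is Mrpl or Mrps with a number and at most 1 letter from a to c, 78 of the 36144 gene rows of the table. Pseudogenes, 5 rows, were left out. The 6 poly-A RNA libraries, 3 titled WT and 3 titled Tumor, each carry a label of orthotopic transplant. By the genotype label the libraries titled WT came from MSRA WT mice and those titled Tumor from MSRA full-body KO mice. The design text describes pancreatic cancer cells put into both genotypes and fat collected 4 to 5 weeks later. The series title, in contrast, sets tumor-bearing mice against controls free of tumor. Msra, which encodes methionine sulfoxide reductase A, stood at 51.1, 59.1 and 56.3 TPM in the libraries titled WT and at 52.9, 40.0 and 26.9 TPM in those titled Tumor. Msra RNA was thus present in every library that the genotype label calls knockout, and the groups are therefore named by their titles, the library labelled WT or Tumor. Which part of Msra the knockout removes, and the strain, age and sex of the mice and the cancer cell line, are not stated in the labels. Genotype and tumor cannot be told apart where the labels disagree.

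Mitochondria keep their own ribosome, built from ribosomal RNA of the mitochondrial genome and from proteins that are encoded in the nucleus, made in the cytosol and imported. It translates the few messenger RNAs of the mitochondrial genome, all of which encode subunits of the respiratory chain and ATP synthase, so that respiratory complexes need both gene sets. Many of its proteins have a counterpart in bacteria and others arose in the mitochondrial lineage. In white fat, mitochondria serve fatty acid synthesis and the storage of fat, and in brown and beige fat they produce heat.

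TPM gives a transcript's length-corrected share of a library, scaled so that each library sums to 1000000, so the number of reads per library is unknown and no counting interval is given. Differences are Tumor minus WT on the log2(TPM + 1) scale. Tests are from limma over the 14144 genes that reached 1 TPM in 3 or more libraries. The libraries differed in cell makeup across the groups. Cd79a, of the B cell receptor, ran from 0.775 to 277 TPM in WT and from 1.71 to 712 TPM in Tumor, with WT replicate 3 and Tumor replicate 1 low. All 9 B cell markers were measured, and their summed level ran from 5.01 to 1053 TPM against 10.6 to 2601 TPM. The 12 adipocyte markers, all detected in every library, summed to 39380 to 69260 TPM in WT and 15870 to 58270 TPM in Tumor, with Tumor replicate 3 lowest. Of the 8 brown and beige markers, summing to 867.7 to 2435 TPM in WT and 252.3 to 400.8 TPM in Tumor, Elovl3 was listed at 0 in Tumor replicate 3. The 8 macrophage markers summed to 1628 to 2013 TPM and 2261 to 4007 TPM, and the 8 skeletal muscle markers to 9.35 to 2575 TPM and 565 to 2269 TPM. In bulk tissue, fewer cells of a type and less RNA per cell cannot be told apart.

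Mitoribosomal transcripts were lower as a set in the libraries titled Tumor, by a small amount. Summed over 78 genes they took 5221, 5404 and 5247 TPM in the libraries titled WT and 4934, 4742 and 4381 TPM in those titled Tumor. Every Tumor library lay below every WT library, and Tumor replicate 3 was the lowest. The means were 5291 ± 98.6 and 4686 ± 281 TPM (SD, n = 3, here and below), 11.4% lower in Tumor. This sum is a description without a test, since the members were chosen with results of these data known. The summed brown and beige markers were also lower without overlap in Tumor. Of the 7 tested markers 5 were separated, against 3.24% of all genes tested. The summed macrophage markers were higher, with 3 of 8 separated (Cd68, Csf1r and Lyz2), against 11.8% of all genes tested. Lyz2 was the largest part of the sum. In Tumor replicate 3, Mrc1, Cd163, C1qa and C1qb lay below every WT library, at 19.2, 3.77, 315 and 247 TPM. Macrophage markers were thus not higher in every Tumor library gene by gene. The part of either marker list in the mitoribosomal difference was not tested.

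**Figure D1:**
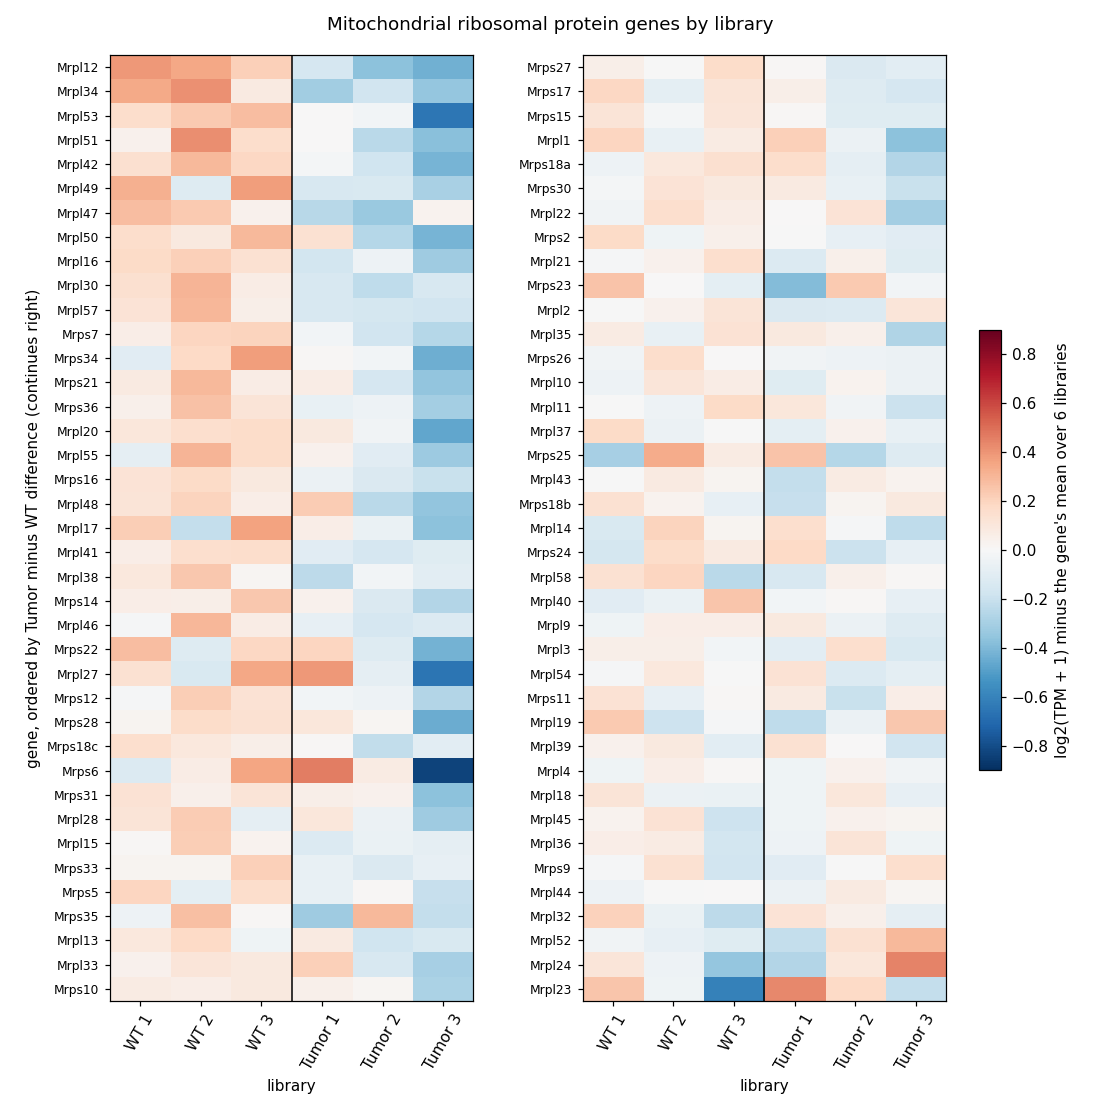
Each row is 1 of the 78 mitoribosomal genes, ordered by its Tumor minus WT difference, and each column 1 library, with WT left of the black line. Colour is the log2(TPM + 1) level minus the gene's mean over 6 libraries. Blue is most frequent in Tumor 3, the library in which 44 genes had their lowest value.

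The shift was spread over the set, not carried by a few genes. All 78 members passed the filter on low values, their lowest single value being 7.76 TPM, so none was lost to it. The difference was negative for 70 members, against 23.2% of all genes tested, and ran from -0.63 to 0.27 with a median of -0.14. The median of all genes tested was 0.23, and 77 of 78 members lay below it. In 23 members every Tumor library was below every WT library, where 3.24% of all genes tested were lower in this way. In 0 members every Tumor library was above every WT library, where 11.8% of all genes were. Among the 8215 tested genes whose mean level lay within the members' range, the median difference was also 0.23 and 3.58% were lower without overlap. No member passed the test. With limma, adjusted p-values under 0.05 were reached by 0 of 14144 genes (0.00%), and 0.737 was the lowest among members. Unadjusted p-values under 0.05 were reached by 771 genes (5.45%), 1.70% of all genes being lower and 3.75% higher. They included 3 members, Mrpl12, Mrpl34 and Mrpl42, all with a negative difference. With median-ratio factors 23 members, and with upper-quartile factors 22, had an unadjusted p under 0.05, still with 0 past the adjusted threshold. Of all 14144 genes, 134 were higher and 510 lower at this p with median-ratio factors. With upper-quartile factors 156 were higher and 441 lower. Over the 78 members, Spearman's rho of the difference with mean level was -0.24 and with transcript length 0.08, across genes that share the same libraries.

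**Figure D2:**
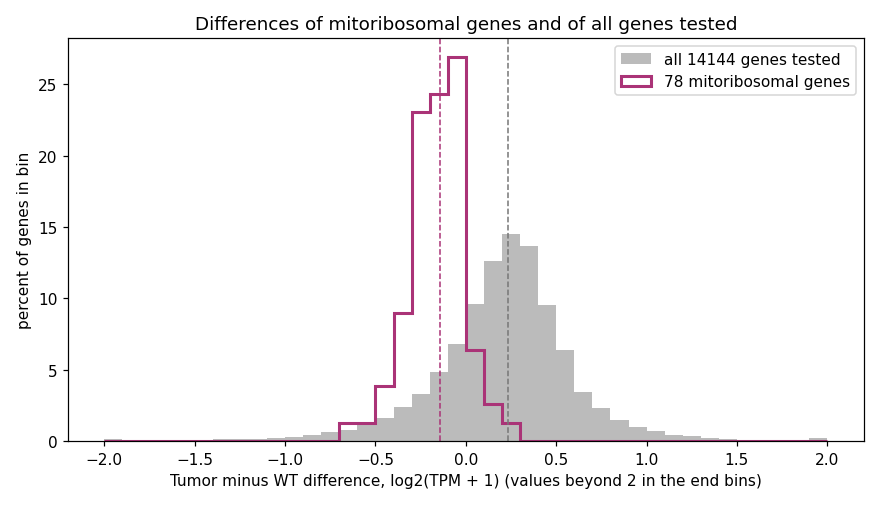
The plot gives the percent of genes (vertical axis) by Tumor minus WT difference in log2(TPM + 1) (horizontal axis), grey for all 14144 genes tested and outlined for the 78 mitoribosomal genes. Dashed lines mark the medians, 0.23 and -0.14.

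Because TPM are shares of a fixed total, the sign of a small difference depends on the scaling. With median-ratio factors the median of all genes moved from 0.23 to 0.05, that of the members to -0.34, and 77 of 78 members were negative. With upper-quartile factors these values were 0.06, -0.34 and 77. Members lower without overlap numbered 46 with median-ratio factors, against 6.35% of all genes, and 45 with upper-quartile factors, against 5.66%. The member median less the median of all genes was -0.38 as deposited and -0.39 under both scalings. The split of all genes at an unadjusted p below 0.05 turned from 530 higher and 241 lower to 134 higher and 510 lower with median-ratio factors and to 156 and 441 with upper-quartile factors. A negative difference of a member was thus common to the 3 scales, while the 7 positive members other than Mrpl23 turned negative after rescaling.

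The members were also steady between libraries. Their coefficient of variation over all 6 libraries had a median of 11.4% and ran from 3.0% to 28.1%. Over all genes tested the median was 30.1%, and over the 8215 genes in the same range of levels it was 24.8%. The lowest of the 6 values fell in a Tumor library for 68 members, 44 in replicate 3, 11 in replicate 2 and 13 in replicate 1, and the highest fell in a WT library for 59. Within the 4 libraries rich in B cell transcripts the median difference was -0.19, with 71 members negative, 44 lower without overlap and 2 higher. Of all genes, 7.91% were lower without overlap in these 4 libraries. Between the 2 libraries poor in them, 53 of 78 members were lower in Tumor replicate 1 than in WT replicate 3, with a median difference of -0.08, whereas all genes had a median of 0.16. That pair has no replicates. Without Tumor replicate 3, which had the fewest adipocyte transcripts, the member median was -0.10 and 24 members were lower without overlap, against 3.73% of all genes in the same 5 libraries. Without Tumor replicate 1 that count was 41, against 6.74% of all genes, and 2 members were higher without overlap, against 34.3%.

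The members lie on 17 chromosomes, 11 of them on chromosome 11. Their promoters were searched for short motifs of known regulators. RefSeq promoter windows on GRCm38.p6, from 250 bases before to 50 bases after each start, were found for 69 of 78 members. The ETS core CCGGAAG, read on both strands, occurred in 26 of 69 members (37.7%), in 9.93% of all 27025 genes with a window and in 19.25% of the 10425 such genes that were tested. The NRF1 motif (GCGCA, any base, then GCGC), NRF1 being a regulator of nuclear genes for mitochondria, occurred, on either strand, in 13 members (18.8%), against 5.19% of all and 10.94% of tested genes. The YY1 motif AAGATGGCG occurred in 8 members (11.6%), against 1.64% and 3.40%. At least 1 of the 3 occurred in 41 members (59.4%), 15.1% of all genes and 29.9% of tested genes. Other searched motifs were the E-box CACGTG in 5 members (7.2%, against 8.09% of all genes), CCAAT in 27 (39.1%, 41.06%), the CRE TGACGTCA in 2 (2.9%, 2.03%) and TATAAA in 5 (7.2%, 15.67%). Among tested genes these other motifs occurred, in the same order, in 11.34%, 42.78%, 3.38% and 9.19%. Among the 21 windowed members lower without overlap, 8 had the ETS core, 3 the NRF1 motif and 1 the YY1 motif. Among the other 48 these numbers were 18, 10 and 7. A match is a run of letters and not a measured binding site.

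The stretches just upstream of the RefSeq starts of 7 members are shown. These are the 3 members with the lowest p, the most abundant member and the 3 members with the most positive difference. The Mrpl23 stretch lies inside its GENCODE M21 gene model, which begins at base 142532686. Each stretch runs 5′ to 3′ on the gene's strand and leaves out annotated UTR bases. Capitals mark the ETS core or the NRF1 motif on either strand.
Mrpl12 (chr11:120484517-120484612, plus strand): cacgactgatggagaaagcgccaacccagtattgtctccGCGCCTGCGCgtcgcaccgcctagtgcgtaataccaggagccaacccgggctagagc
Mrpl34 (chr8:71464806-71464925, plus strand): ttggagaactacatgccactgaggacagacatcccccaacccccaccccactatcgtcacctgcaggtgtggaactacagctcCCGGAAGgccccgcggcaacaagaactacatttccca
Mrpl42 (chr10:95501950-95502069, minus strand): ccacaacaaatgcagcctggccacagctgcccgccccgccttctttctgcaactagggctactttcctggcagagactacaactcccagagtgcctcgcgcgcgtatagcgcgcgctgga
Mrps21 (chr3:95871520-95871634, minus strand): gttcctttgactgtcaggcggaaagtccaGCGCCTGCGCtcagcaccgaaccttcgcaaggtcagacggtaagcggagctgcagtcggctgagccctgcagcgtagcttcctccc
Mrpl23 (chr7:142532912-142533011, plus strand): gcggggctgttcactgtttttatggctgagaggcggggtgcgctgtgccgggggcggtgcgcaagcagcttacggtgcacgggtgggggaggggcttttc
Mrpl24 (chr3:87919424-87919505, plus strand): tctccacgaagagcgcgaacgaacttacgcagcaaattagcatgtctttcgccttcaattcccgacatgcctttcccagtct
Mrpl52 (chr14:54426789-54426908, plus strand): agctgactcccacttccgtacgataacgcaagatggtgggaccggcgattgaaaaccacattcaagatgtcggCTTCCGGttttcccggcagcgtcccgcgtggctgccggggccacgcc
Mrpl12 and Mrps21 hold the same NRF1 letters, while Mrpl34 and Mrpl52 hold the ETS core. The stretches of Mrpl42, Mrpl23 and Mrpl24 hold none of the 3 motifs. Bases downstream of the start lay inside the searched window but outside the printed stretches. Mrpl42 has a YY1 match there, and Mrps21 and Mrpl52 each have an ETS match there.

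Among large subunit proteins, Mrpl12 differed most. Mrpl12 (chromosome 11, 120484613 to 120489065, plus strand, GRCm38) forms the flexible stalk that recruits translation factors and also binds the mitochondrial RNA polymerase. Its levels were 129.5, 126 and 115 TPM in WT and 89.0, 76.2 and 73.1 TPM in Tumor. The groups did not overlap, and the means of 123 ± 7.81 and 79.4 ± 8.45 TPM differed by -0.63 (SE 0.15, limma adjusted p = 0.737), 35.6% lower in Tumor. Its upstream stretch, printed above, holds the NRF1 letters. The next gene on the same strand, Slc25a10, which encodes the mitochondrial dicarboxylate carrier, begins 2775 bases after the end of Mrpl12. Slc25a10 stood at 319, 190.5 and 357 TPM in WT and 232, 170.5 and 86.5 TPM in Tumor, overlapping between the groups, with Tumor replicate 3 lowest. Neighbours of Mrpl12 in the stalk and its base were flatter, and are named after their values were seen. Mrpl10, which anchors Mrpl12, averaged 53.3 ± 2.93 and 50.1 ± 2.49 TPM, and Mrpl11 averaged 64.6 ± 5.30 and 61.1 ± 6.41 TPM.

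Mrpl34, a small protein with a bacterial counterpart (chromosome 8, 71464959 to 71465747, plus strand), came next. It stood at 95.1, 99.98 and 79.25 TPM in WT and at 60.2, 66.4 and 58.6 TPM in Tumor. The groups did not overlap, with a difference of -0.55 (SE 0.16, limma adjusted p = 0.737). Mrpl42, a protein specific to mitochondria (chromosome 10, 95480805 to 95501940, minus strand), stood at 159.7, 177 and 164.5 TPM in WT and at 143, 127 and 108 TPM in Tumor. Its difference was -0.41 (SE 0.17, limma adjusted p = 0.737), again without overlap.

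**Figure D3:**
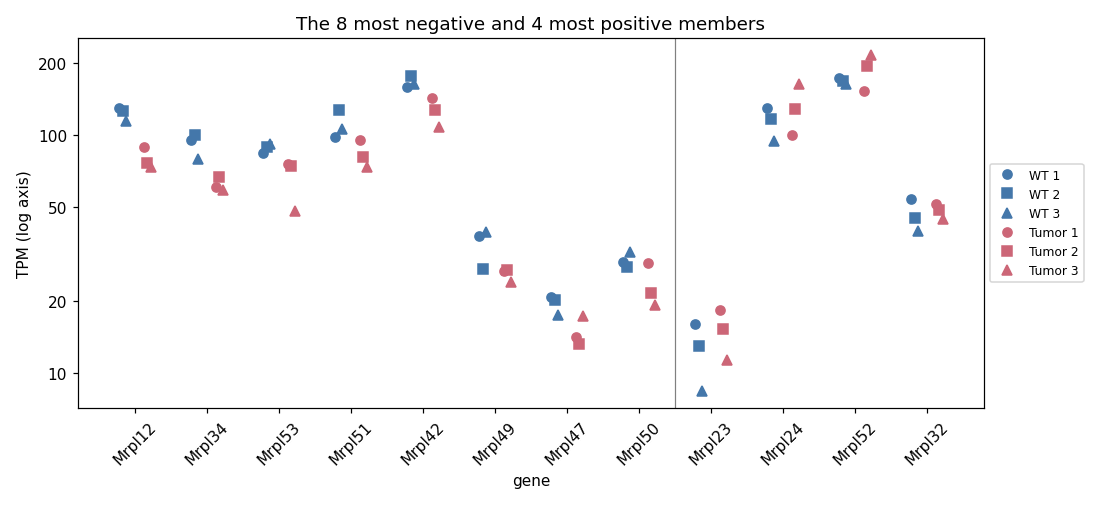
TPM on a log axis is plotted for the 8 members with the most negative difference, left of the line, and the 4 with the most positive, right of it. Each point is 1 library, WT blue and Tumor red, with the marker shape giving the replicate number. In Mrpl12 the highest Tumor point lies at 89.0 TPM and the lowest WT point at 115 TPM.

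The other members among the 8 most negative all belong to the large subunit. Mrpl53, mitochondria-specific, stood at 84.1, 89.0 and 91.7 TPM in WT and at 75.8, 74.1 and 47.8 TPM in Tumor, most of its difference of -0.45 (SE 0.22) coming from Tumor replicate 3. Mrpl53 overlaps another protein-coding model, Gm42688, on the same strand, and how reads were divided between them is not stated in the labels. Mrpl51 ran from 98.2 to 128 TPM in WT and from 73.3 to 95.45 TPM in Tumor, a difference of -0.41 (SE 0.18). Mrpl49 ran from 27.35 to 38.9 TPM and from 24.1 to 26.95 TPM, a difference of -0.39 (SE 0.19). In both genes the highest Tumor value lay just under the lowest WT value. Mrpl47, which sits at the exit of the peptide tunnel, ran from 17.5 to 20.75 TPM and from 13.2 to 17.4 TPM, a difference of -0.37 (SE 0.18). Mrpl50 overlapped between groups, at 27.8 to 32.15 TPM against 19.3 to 28.8 TPM, a difference of -0.36 (SE 0.20). For these genes the limma adjusted p was 0.737.

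Members at the other end of the order did not separate the groups. Mrpl24, near the tunnel exit, stood at 129, 116.5 and 94.0 TPM in WT and at 99.7, 129 and 164 TPM in Tumor, a difference of 0.19 (SE 0.24, limma adjusted p = 0.817). Mrpl52 ran from 164 to 174 TPM in WT and from 152.5 to 218 TPM in Tumor, a difference of 0.14 (SE 0.18). Mrpl24 and Mrpl52 were highest in Tumor replicate 3, the library in which most members were lowest. Mrpl32, whose maturation by an inner membrane protease is needed for assembly, ran from 39.5 to 54.0 TPM and from 44.2 to 51.1 TPM, a difference of 0.06 (SE 0.17). After median-ratio scaling the differences of Mrpl24, Mrpl52 and Mrpl32 were -0.01, -0.06 and -0.14.

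Mrpl23 had the most positive difference, 0.27 (SE 0.30, limma adjusted p = 0.804), and its values are uncertain. It stood at 16.0, 12.9 and 8.36 TPM in WT and at 18.3, 15.2 and 11.3 TPM in Tumor. The processed pseudogene Mrpl23-ps1 was listed far higher, at 78.7, 103.5 and 82.6 TPM against 90.1, 82.2 and 83.2 TPM. In GENCODE M21 the pseudogene transcript matches the Mrpl23 transcript over 540 aligned bases with 540 identical, so reads from that stretch cannot be assigned to 1 locus. The 2 rows together averaged 100.7 ± 13.7 and 100.1 ± 7.3 TPM.

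The highest levels belonged to small proteins of both subunits. Mrps21, of the small subunit, was the most abundant member at 259, 301 and 256 TPM in WT and 256, 221 and 191 TPM in Tumor, a difference of -0.29 (SE 0.185). Its groups touched, with WT replicate 3 and Tumor replicate 1 both at 256 TPM. Mrpl33 stood at 177, 186 and 183 TPM against 200.5, 156 and 139.7 TPM, overlapping, a difference of -0.15. Mrpl30 stood at 181, 202 and 171 TPM against 148, 139 and 148 TPM, without overlap, a difference of -0.34. The lowest mean level, 10.4 TPM, was that of Mrpl1, and the median over members was 57.7 TPM.

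Both subunits and both origins shared the shift. Of all genes tested, 23.2% were negative and 3.24% lower without overlap. Of 49 genes with an Mrpl symbol 42 were negative, with a median of -0.12 and 15 lower without overlap. Of 29 with an Mrps symbol 28 were negative, with a median of -0.16 and 8 lower without overlap. The 46 members with a bacterial counterpart and the 31 specific to mitochondria each had a median of -0.14, with 13 and 9 lower without overlap. Mrps36, today also placed as a subunit of the oxoglutarate dehydrogenase complex and not of the ribosome, was among those lower without overlap, at 77.2 ± 6.03 and 63.4 ± 6.26 TPM. Symbols do not always give the place of a protein, as Mrps30 and Mrps18a are found in the large subunit. Small subunit proteins lower without overlap included Mrps7, of the head, at 67.4 ± 3.65 and 54.5 ± 4.52 TPM. Mrps12, of the decoding centre, stood at 70.6 ± 5.88 and 60.3 ± 5.53 TPM, and Mrps16, mutated in a human disorder of mitochondrial translation, at 62.9 ± 1.87 and 52.5 ± 2.74 TPM. These genes are named after their values were seen.

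The paralogs Mrps18a, Mrps18b and Mrps18c descend from the gene of 1 bacterial protein and occupy different places in the ribosome. In the classes of origin above, Mrps18c was counted with a bacterial counterpart, but Mrps18a and Mrps18b as specific to mitochondria. Mrps18c, of the small subunit, stood at 87.0, 83.6 and 81.1 TPM in WT and at 78.7, 67.0 and 73.1 TPM in Tumor, without overlap, a difference of -0.20. Mrps18a stood at 72.9, 80.5 and 83.0 TPM against 83.9, 70.9 and 62.3 TPM, a difference of -0.13. Mrps18b stood at 63.4, 58.9 and 54.6 TPM against 49.7, 58.6 and 61.2 TPM, a difference of -0.06. The groups overlapped for Mrps18a and Mrps18b. The 2 genes ran in opposite order over the Tumor libraries, with Mrps18a highest and Mrps18b lowest in replicate 1.

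Mrps6 varied most between libraries, with a coefficient of variation of 28.1%. It stood at 74.1, 84.4 and 103.5 TPM in WT and at 111, 84.8 and 44.7 TPM in Tumor. The gene overlaps Slc5a3, a myo-inositol transporter, on the same strand, so its reads may include those of Slc5a3, which ran from 2.22 to 8.51 TPM. In all, 26 members overlap another protein-coding gene in GENCODE M21, 4 of them on the same strand, and their values are uncertain to that extent.

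In 5 lists of genes for mitoribosome assembly, translation factors, mitochondrial RNA and respiratory assembly the median differences lay between -0.11 and 0.11, where the mitoribosomal median was -0.14 and that of all genes 0.23. For the 5 mitoribosome proteins with other symbols the median difference was -0.08, with 3 negative and 0 lower without overlap. Aurkaip1 averaged 113 ± 4.29 and 105 ± 10.7 TPM, Gadd45gip1 16.35 ± 0.287 and 15.4 ± 2.48 TPM, and Ptcd3 40.8 ± 5.30 and 42.0 ± 4.00 TPM. The 26 genes of ribosome assembly and ribosomal RNA modification had a median of 0.05, with 11 negative, 1 lower (Tfb1m) and 1 higher (Rpusd4) without overlap. All genes tested had 3.24% lower and 11.8% higher in this way, here and for the lists that follow. Mpv17l2, an assembly protein of the inner membrane, averaged 68.3 ± 12.8 and 53.45 ± 15.4 TPM, and Tfb1m, the methyltransferase of the small ribosomal RNA, 9.09 ± 0.390 and 7.96 ± 0.150 TPM. Trub2, a pseudouridine synthase, averaged 13.2 ± 2.29 and 18.1 ± 4.75 TPM.

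The 14 translation factors had a median of 0.11, with 5 negative. The elongation factors Gfm1 and Tufm were lower without overlap, and Guf1, a GTPase related to bacterial elongation factor LepA, was higher, at 9.73 to 11.77 TPM in WT and 12.48 to 12.76 TPM in Tumor. Gfm1 averaged 37.7 ± 1.92 and 30.25 ± 4.76 TPM and Tufm, the most abundant of the pair, 94.3 ± 5.34 and 81.0 ± 6.39 TPM. Mss51 averaged 2.03 ± 0.802 and 3.12 ± 0.663 TPM. The 14 genes of mitochondrial transcription and RNA stability had a median of 0.07, with 4 negative and 3 lower without overlap. Hsd17b10, a subunit of mitochondrial RNase P, averaged 151 ± 10.3 and 115 ± 29.5 TPM, and Slirp, which stabilises mitochondrial messenger RNAs with Lrpprc, 109.7 ± 11.0 and 85.3 ± 14.5 TPM. Tfam, which packages the mitochondrial genome and starts its transcription, had a positive difference, at 35.0, 29.7 and 26.7 TPM in WT and 30.5, 51.6 and 60.5 TPM in Tumor, a difference of 0.58 (SE 0.28, limma adjusted p = 0.737), overlapping. The 16 genes of membrane insertion and respiratory assembly had a median of -0.11, with 11 negative and 3 lower without overlap. Cox17, a copper chaperone, averaged 231 ± 51.1 and 174 ± 20.2 TPM, Cox14 121 ± 4.06 and 98.6 ± 8.39 TPM, and Surf1 82.9 ± 5.29 and 89.6 ± 11.1 TPM. In these 5 lists 0 genes passed the limma test and 0 had an unadjusted p below 0.05.

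The median difference of mitoribosomal genes was nearer to 0 than those of the messenger RNAs that mitoribosomes translate and of the nuclear subunits that join their products. The 37 nuclear subunits of respiratory complex I, the first enzyme of the respiratory chain, had a median difference of -0.48, all negative, 32 lower without overlap. Their sum was 30.0% lower in Tumor. Of all genes tested, 23.2% were negative, 3.24% lower without overlap and 5.45% at an unadjusted limma p below 0.05. That p was reached by 18 of the 37 complex I genes. The 13 messenger RNAs of the mitochondrial genome had a median of -0.51, all negative, and a sum that was 29.6% lower. Only 6 of them were lower without overlap, and 0 had an unadjusted limma p below 0.05. Mitoribosomal TPM per TPM of complex I were 0.527, 0.427 and 0.492 in WT and 0.553, 0.587 and 0.699 in Tumor, higher in every Tumor library. Per 100 TPM of mitochondrial messenger RNA, mitoribosomal TPM were 3.56, 3.62 and 2.82 in WT and 3.74, 3.86 and 5.14 in Tumor, also without overlap. These ratios do not depend on the total to which TPM are scaled, and are given without a test. The 85 genes of cytosolic ribosomal proteins took 11.8%, 11.4% and 5.60% of TPM in WT and 7.34%, 10.9% and 16.1% in Tumor. Their median difference was 0.27 with 79 of 82 tested members positive and 0 separated, and they were low in the same WT replicate 3 and Tumor replicate 1 in which B cell markers were low. That median was close to the 0.23 of all genes tested, of which 10856 of 14144 were positive and 11.8% higher without overlap.

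**Figure D4:**
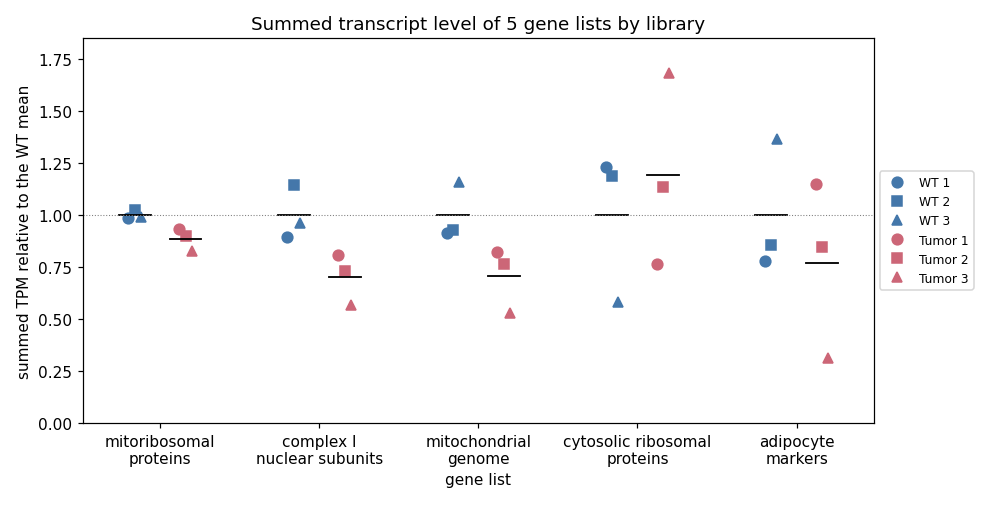
Summed TPM of 5 gene lists, each divided by its WT mean (vertical axis), with 1 point per library, WT blue and Tumor red, and black bars at the group means. Mitoribosomal proteins lie close together, with Tumor at 0.886 of WT, while cytosolic ribosomal proteins and adipocyte markers overlap widely between groups.

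Many members share a start region with another gene. A protein-coding gene on the opposite strand starts within 1000 bases of the start of 33 members. Of these partners 27 were tested and are no members themselves. The partners had a median difference of 0.20, with 4 negative, whereas the 27 members beside them had a median of -0.16, with 24 negative. In 23 pairs the member lay below its partner. Of the members in these pairs 9 were lower without overlap, and of the partners 2. Over all genes tested 3.24% were lower in this way, 23.2% were negative and the median was 0.23. Mrpl30 and Mitd1, with starts 66 bases apart, had differences of -0.34 and 0.45. Mrpl41 and Pnpla7, 935 bases apart, had -0.24 and 0.65. Mrpl49 and Fau, which encodes a cytosolic ribosomal protein, start 59 bases apart and had -0.39 and 0.34. In the other 4 pairs the partner was lower, and 2 of these partners encode complex I subunits, Ndufb5 beside Mrpl47 at -0.54 and Ndufs6 beside Mrpl36 at -0.46. The other two were Apba3 beside Mrpl54 at -0.33 and Psma2 beside Mrpl32 at -0.03. The 45 members with no such partner had a median of -0.14. These pairs are named after their values were seen, and differences between the 2 genes of a pair were not tested.

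**Figure D5:**
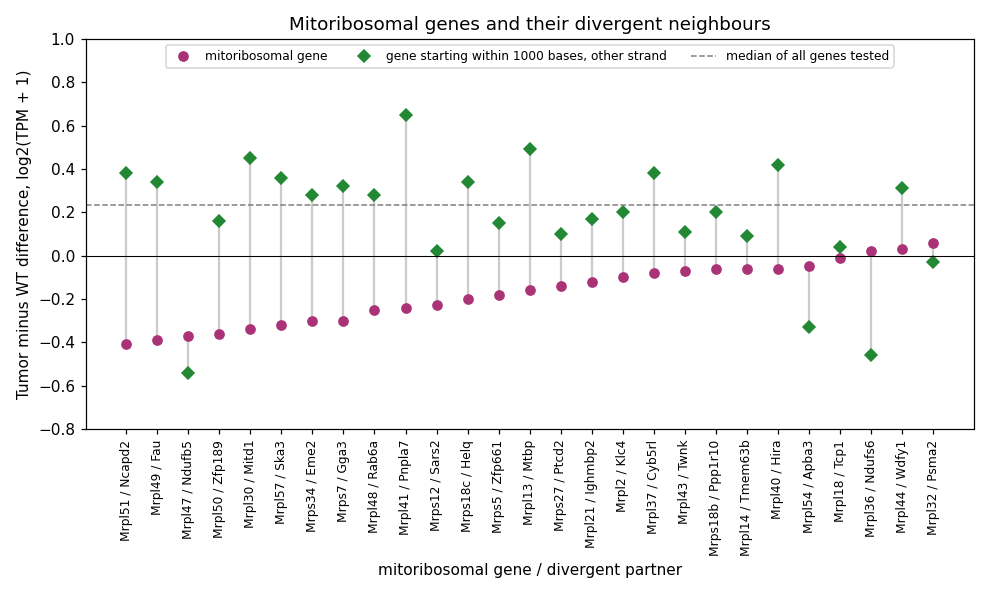
For the 27 members with a tested partner, the plot gives the Tumor minus WT difference in log2(TPM + 1) of the member (circle) and of the gene that starts within 1000 bases on the other strand (diamond), ordered by the member's value. The dashed line is the median of all genes tested, 0.23. The partners have a median of 0.20, and 24 of the 27 members lie below 0.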

How the data were processed

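The 6 libraries were grouped by title, 3 WT and 3 Tumor. The authors deposited 1 table of TPM, although it is named as raw counts: its values are not whole and each column sums to 1000000. Per the labels' protocols, RNA was poly-A selected and libraries were made with TruSeq chemistry. Per the submitters' processing notes the genome was GRCm38.p6, and DESeq2 is listed without a role. Aligner, quantification tool and annotation: not given in the sources used here. Of the names, 26 are spreadsheet dates. All 78 members matched 1 gene of GENCODE M21 on GRCm38.

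limma 3.58.1 in R 4.3.3 was run on log2(TPM + 1) with trend and robust moderation, for genes with at least 1 TPM in 3 libraries. The Benjamini-Hochberg adjustment covered 14144 genes, with a threshold of 0.05. The labels name biological replicates and no animals, so p-values measure the spread between these samples. The procedure was tested on simulated data with the same spread for every gene and no differences in cell makeup. That setting is simpler than these libraries, so it does not give the power of the test here. Members and lists were chosen with earlier results of these data known, so no list test was made. Genes were named by a rule: the 8 most negative, 4 most positive and 4 most abundant members, the Mrps18 paralogs, 3 genes per pathway list, and Msra. Other genes, among them Mrpl1, Mrpl10, Mrpl11, Mrpl41, Mrpl45, Mrps6, Mrps7, Mrps12, Mrps16, Mrps36, Guf1, Rpusd4, Lars2, Gm11594 and the genes beside members, were named after their values were seen. Marker lists are given as sums, with some single markers added after their values were seen. Promoters are RefSeq sequences. Python 3.11.15, pandas 2.3.3, numpy 2.4.6, Biopython 1.88 and matplotlib 3.10.9 were used. Alternatives covered pseudocount, filter, moderation, scaling, covariates, replicate block and left-out libraries.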

Additional observations from a re-analysis of the deposited data

How the results depend on the processing

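Under 19 alternatives 0 members passed the limma threshold, and the count over all genes was 0 except with the B cell covariate, where it was 1 (Gm11594). The member median was -0.34 with median-ratio and upper-quartile factors and -0.22 after removal of the mitochondrial genome. Less the median of all genes it was -0.26 without a filter, where many genes near 0 enter. Members lower without overlap numbered 46 and 45 with the 2 sets of factors and 44 in the 4 libraries rich in B cell transcripts, where fewer libraries have to separate. Leaving out 1 library gave member medians of -0.19 to -0.10, less the median of all genes -0.44 to -0.31, and 24 to 41 members lower without overlap, the most without Tumor replicate 1. Over the same sets of 5 libraries 3.73% to 6.74% of all genes were lower without overlap. Of 18 named members 13 kept their direction throughout. With median-ratio and upper-quartile factors Mrpl24 turned to -0.01 and -0.01, Mrpl32 to -0.14 and -0.13, Mrpl52 to -0.06 and -0.05, Ptcd3 to -0.16 and -0.15, and Surf1 to -0.10 and -0.09. Without the mitochondrial genome Mrpl32 was -0.02 and Ptcd3 -0.03. In the 4 B cell rich libraries Mrpl23 was -0.12, Mrpl32 -0.09, Ptcd3 -0.01 and Gadd45gip1 0.01. With the adipocyte covariate Ptcd3 was -0.04. Leaving out 1 library gave -0.04 (without WT replicate 3) to 0.18 for Mrpl32 and -0.07 (also without WT replicate 3) to 0.10 for Ptcd3. Without Tumor replicate 1 Gadd45gip1 and Mrps18b were both 0.03, and without Tumor replicate 3 Ptcd3 was -0.03. The cause of these changes was not tested. With the replicate number as a block 0 genes passed, and the member median stayed at -0.14. Deviations of same-numbered libraries correlated at -0.76, 0.20 and -0.84. The highest correlation, 0.85, was between WT replicate 3 and Tumor replicate 1, both low in B cell markers. Since cell makeup can set these correlations, they cannot tell whether the numbers pair the samples. Depth is unknown, and the precision of low genes cannot be given.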

Other observations

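Gm11594 is annotated in GENCODE M21 as a processed pseudogene inside Mrpl45, on the opposite strand. It stood at 8.44, 7.32 and 5.69 TPM in the libraries titled WT and was listed at 0 in all 3 titled Tumor, the smallest adjusted p of the table (limma adjusted p = 0.206, and 0.0309 with the B cell covariate). Mrpl45, its host, tethers the ribosome to the inner membrane and averaged 20.4 ± 2.34 and 20.6 ± 0.654 TPM (SD, n = 3). Without the covariate 0 genes of the table passed.

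Lars2, the mitochondrial leucyl-tRNA synthetase, which charges the tRNA that the mitoribosome uses for leucine, stood at 314, 255 and 311 TPM in WT and at 2446, 662 and 818 TPM in Tumor. The groups did not overlap (log2 difference 1.91, SE 0.51, limma adjusted p = 0.737). The 20 mitochondrial tRNA synthetase and amidotransferase genes had a median difference of 0.16, with 2 genes lower and 2 higher without overlap, against 3.24% and 11.8% of all genes tested.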
